A study of Mus musculus with 4 samples.

Results

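The genes described here encode laminins, collagens, integrins, thrombospondins, the ADAM and ADAMTS proteases, the matrix metalloproteinases (MMPs) and their tissue inhibitors (TIMPs). They were taken by symbol, as every probe whose annotated gene name follows the naming pattern of one of these families, which gave 223 of the 25697 probes on the array and 147 of its 16593 named genes. The pattern also takes in 4 genes that carry an integrin name without encoding an integrin chain: Itgb1bp1, Itgb1bp2, Itgb3bp and Itgbl1. Ribosome-bound RNA had been immunoprecipitated through a hemagglutinin tag from mediobasal hypothalamus of mice carrying Pomc-Cre and hybridized to Illumina MouseRef-8 v2 beadchips. The lineage group (n = 2) came from a cross of Pomc-Cre with RiboTag animals, in which the tag stays on in every descendant of a cell in which Cre was active, including cells that no longer express Pomc. The virus-injected group (n = 2) came from Pomc-Cre animals given the Cre-dependent vector AAV-DIO-RiboTag, a sample type labelled as adult POMC neurons. All animals thus shared the Pomc-Cre transgene, and the groups differed in how and when the tag arrived and in having had an injection. Age, sex, the number of animals per array and the spread of the virus are not given in the sources used here.

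The extracellular matrix of the brain has a dense form, the basement membrane around vessels and under the meninges, built from laminin trimers and a type IV collagen network, and a loose form between cells that is rich in proteoglycans and poor in fibrillar collagen. Cells hold on to it through integrins, which pair an alpha with a beta chain. Its turnover depends on secreted and membrane-bound metalloproteinases, the MMPs, ADAMs and ADAMTSs, and on the TIMPs that block them. Several ADAMs of neurons have lost their catalytic site and serve as adhesion receptors instead.

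Most of these genes were not seen above background in the precipitated RNA. A probe was counted as detected on an array where its deposited detection p-value was under 0.05, and as measured where this held on at least 2 of the 4 arrays. By that rule 56 of the 223 probes and 40 of the 147 genes (27.2%) were measured, against 8360 of 16593 genes (50.4%) on the whole array. A further 12 genes were detected on 1 array only and 95 on no array. Laminins and TIMPs were mostly measured, with 6 of 8 and 3 of 4 genes. Of the collagens 7 of 37 genes were measured, of the integrins 5 of 28, of the thrombospondins 1 of 4, of the ADAM and ADAMTS proteases 12 of 46 and of the MMPs 6 of 20. The integrin counts include the genes that encode no integrin chain, of which Itgb1bp1 and Itgbl1 were measured. Some unmeasured members are named here after their values were seen. Among genes without a detected probe on any array were Col1a1 and Col3a1, the main fibrillar collagens of connective tissue, Col6a1 and Col6a2, the integrin alpha chains Itgav and Itga5, the leukocyte integrin genes Itgam and Itgb2, and the gelatinase gene Mmp2. Col1a2, the laminin chain gene Lamb2 and the gelatinase gene Mmp9 were detected on virus-injected replicate 2 alone. Itga6 (an alpha chain of laminin receptors), Adam9 and Adam10 were detected on lineage replicate 1 alone. Lack of detection sets only an upper bound near the array's background, and it does not show that the transcripts were absent.

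**Figure D1:**
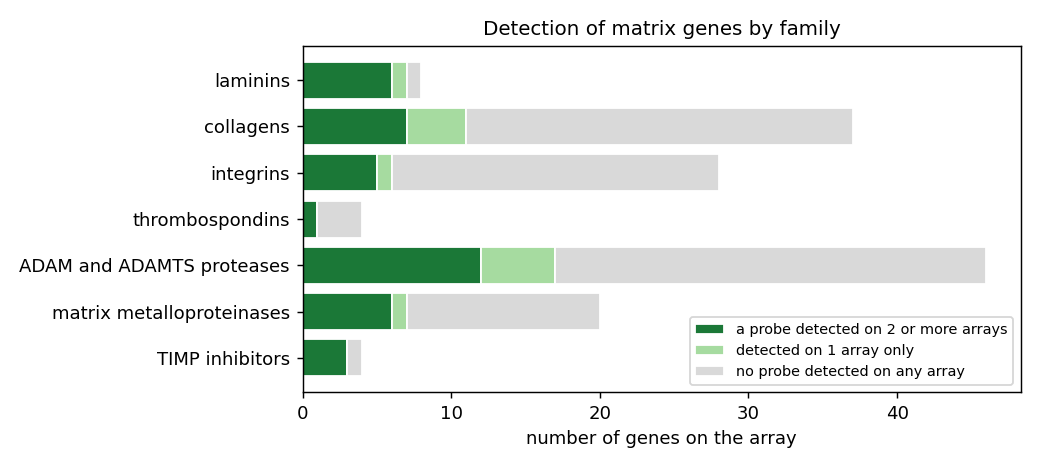
Number of genes of each family on the array, split into genes with a probe detected on 2 or more of the 4 arrays, genes detected on 1 array only and genes with no detected probe. Of 37 collagen genes 7 were measured, and of 8 laminin genes 6.

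Values below are log2 intensities after background correction and quantile normalization, given as virus-injected replicates 1 and 2 and then lineage replicates 1 and 2. Differences are lineage minus virus-injected, with the standard error (SE) of the moderated limma fit. Where a gene had several measured probes, the probe of highest mean stands for it. No member passed an adjusted p of 0.05, with 0 of 56 probes called (0.00% of all 12266 tested probes were called), and the lowest limma adjusted p among members was 0.232. An unadjusted p under 0.05 was reached by 8 member probes, where 10.4% of all tested probes reached it. Of these 5 had a higher and 3 a lower lineage mean, against 4.84% and 5.55% of all tested probes. These are 8.93% and 5.36% of the member probes. By gene the counts were 4 of 40 higher and 1 of 40 lower, where 4.41% and 5.87% of all genes were. The 4 higher genes were Lama1, Itgb1, Adamts1 and Mmp23. All but Itgb1 were detected in the lineage group alone, as was a second Timp1 probe among the 5 higher probes. These were tested only because they were high there, so the larger share of higher members is no support for a difference. Among the 3 lower probes, a second Col2a1 probe was detected in the virus-injected group alone. The groups did not overlap for 11 probes with both lineage arrays on top and for 14 with both below, 19.6% and 25% of the member probes against 21.9% and 21.4% of all tested probes. By gene this held for 10 and 9 of 40, or 25% and 22.5%, against 21.5% and 22.7% of all genes. The shares without overlap therefore lay near those of the whole array. The median difference over the 40 genes was 0.0086, and over all 8360 genes -0.0064.

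A log2 difference of at least 1 in size was reached by 4 of the 40 genes (10%) and by 2.00% of all genes. These 4 were Lama1, Lamb1, Adamts1 and Col2a1. The measured members were dimmer than genes at large, with array medians of 8.64 to 9.03 against 9.54 to 9.55. Of them 72.5% were detected on all 4 arrays, against 84.4% of all genes. Their median absolute difference was 0.28, against 0.19. The shares were not compared at like intensity, so the larger share is no support for a difference. Lama1 and Adamts1, together with Mmp23, passed the detection filter through the lineage group alone and so had to differ. By its probe of highest mean, no measured member gene passed through the virus-injected group alone, although a second Col2a1 probe did. Over all genes 68 passed through the lineage group alone and 141 through the virus-injected group alone.

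**Figure D2:**
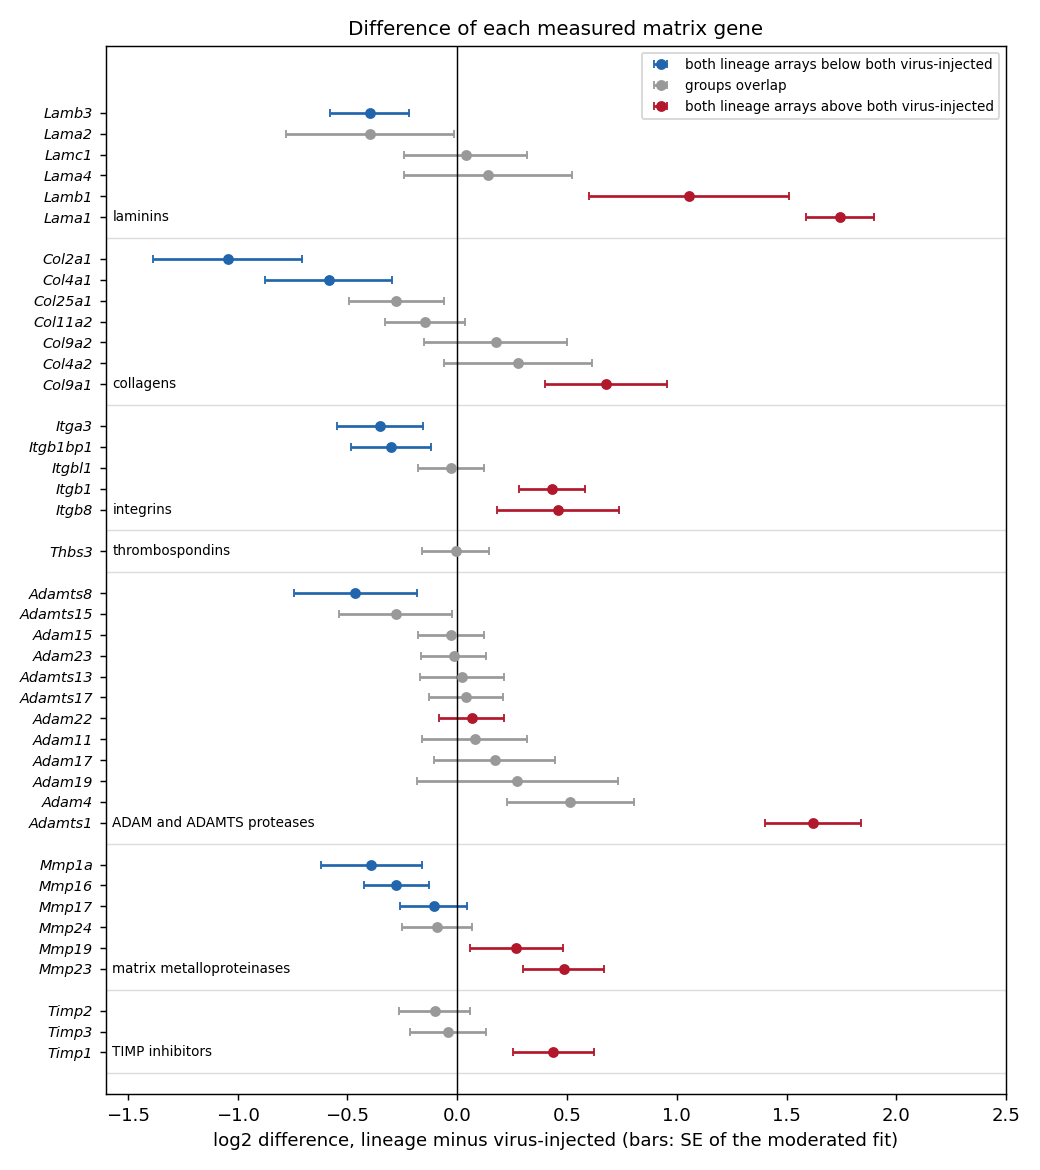
Log2 difference (lineage minus virus-injected) of each of the 40 measured genes by its probe of highest mean, grouped by family, with the SE of the moderated fit. Red points have both lineage arrays above both virus-injected arrays, blue points the reverse, and grey points overlap. Lama1 at 1.74, Adamts1 at 1.62 and Lamb1 at 1.06 lie farthest to the right, and Col2a1 at -1.04 farthest to the left.

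Among the laminins, the alpha1 and beta1 chains had higher lineage means and the other 4 measured chains differed by at most 0.40 in either direction. Lama1 (chromosome 17, 67697127 to 67822645, GRCm38.p6) encodes the alpha1 chain, which with beta1 and gamma1 forms laminin-111, a trimer of early basement membranes. Its levels were 7.20 and 7.24 on the virus-injected arrays and 9.05 and 8.88 on the lineage arrays. It was detected on both lineage arrays and on neither virus-injected array, so that only a bound can be given. On these values the lineage mean exceeded that of the virus-injected arrays at least 2.91-fold. Such a bound sets the lineage mean against the dimmest detected signals of the virus-injected arrays, averaged. It holds for group means of background-corrected values only, and need not hold for uncorrected values or for each array by itself. The fitted difference was 1.74 (SE 0.15, 95% interval 1.34 to 2.15, limma adjusted p = 0.232). In deposited intensity the probe read 559.6 and 568.4 against 915.6 and 911.5, and it was carried by 40 to 45 beads per array, with a standard error over beads of at most 4.25% of the signal. Because the virus-injected values lay under the detection limit and the probe was tested through the lineage group alone, its interval and p-values are a description of the probe and no support for a difference. Without background correction the difference was 0.72, which is smaller than that bound. Lama1 passed there (limma adjusted p = 0.0394, with 0.367% of all probes called) and with a prior variance that depends on mean intensity (limma adjusted p = 0.0120, with 1.89% called). Over its alternatives the adjusted p ranged from 0.0120 to 0.789.

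Lamb1, the beta1 chain, was at 8.04 and 9.27 against 9.94 and 9.48. The lineage arrays lay above both virus-injected arrays, but these differed from each other by more than the distance from the higher of them to the lineage group. The difference of 1.06 (SE 0.45, limma adjusted p = 0.509) was 0.44 without virus-injected replicate 1 and 1.67 without replicate 2. Lamc1, the gamma1 chain found in most laminin trimers, was at 8.61 and 8.19 against 8.14 and 8.74 and overlapped, with a difference of 0.04 (95% interval -0.70 to 0.78). Of the 3 chains of laminin-111, Lamc1 alone overlapped between the groups, and differences among the chains were not tested.

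Lamb3, the beta3 chain of epithelial laminin-332, was lower on both lineage arrays, at 9.19 and 9.47 against 9.02 and 8.85 (difference -0.40, SE 0.18, limma adjusted p = 0.522), with -0.26 when virus-injected replicate 2 was left out. Lama4, a chain of vessel basement membranes, was at 8.84 and 8.19 against 8.23 and 9.08. Lama2, the alpha2 chain of muscle and brain basement membranes, was at 7.98 and 7.99 against 7.05 and 8.13. Both overlapped between the groups, and for Lama2 lineage replicate 1 was below the detection limit while lineage replicate 2 was the highest of the 4 arrays.

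**Figure D3:**
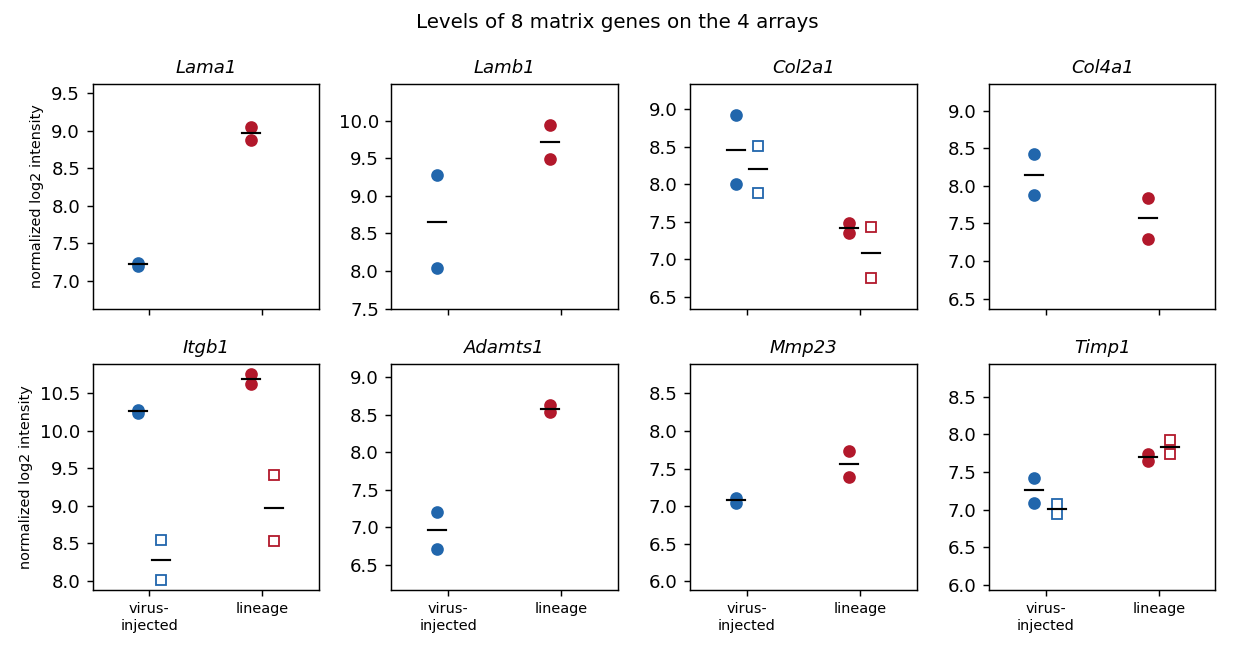
Normalized log2 intensity of 8 genes on the 2 virus-injected (blue) and 2 lineage (red) arrays. Filled circles are the probe of highest mean, open squares the gene's other tested probe, and bars the group means; each panel spans 3 log2 units. Levels of different probes are not comparable with each other.

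In the collagen family 3 genes had a higher and 4 a lower lineage mean, with a median difference of -0.15. Col2a1 (chromosome 15, 97975602 to 98004724), the fibrillar collagen of cartilage and of the embryonic notochord, was lower on both lineage arrays, at 8.0 and 8.92 against 7.35 and 7.48 (difference -1.04, SE 0.34, limma adjusted p = 0.434). On this probe lineage replicate 2 was below the detection limit and lineage replicate 1 only just above it, so the size of the difference is uncertain. A second Col2a1 probe was at 7.89 and 8.51 against 6.75 and 7.43 (difference -1.11, SE 0.33, limma adjusted p = 0.426). That probe fell under the detection limit on both lineage arrays, and its virus-injected level was higher at least 1.59-fold. It was tested through the virus-injected group alone, so its values are a description and no support for the first probe. The size rested in part on virus-injected replicate 2, the brighter array for both probes: without it the difference of the first probe was -0.58, and without replicate 1 it was -1.52. Without background correction it was -0.42. The other cartilage collagens went different ways. Col9a1, whose product coats type II fibrils, was higher on both lineage arrays, at 7.77 and 7.58 against 8.01 and 8.70 (difference 0.68, SE 0.28, limma adjusted p = 0.498). Without lineage replicate 2 its difference was 0.34, and without lineage replicate 1 it was 1.02. Other Col9a1 probes were below the detection limit on all 4 arrays and were not tested, so the difference rests on 1 probe. The partner gene Col9a2 overlapped, at 8.67 and 8.51 against 8.33 and 9.21. Col11a2, which joins type II collagen in fibrils, overlapped as well, at 9.28 and 9.04 against 8.89 and 9.13.

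Col4a1 and Col4a2 encode the chains of the type IV collagen network in every basement membrane. Their genes are divergent, and the promoter windows that RefSeq's GRCm38.p6 tables give for them share 78 bases (chr8:11312777-11312854). The windows are shown because the pair is read from the same stretch of DNA in opposite directions. Each runs 5′ to 3′ on its gene's strand, from upstream of the start that the window uses into the bases after it. For Col4a1 that start is 11312826, but the listed gene reaches to 11312889. Part of its upstream bases therefore lie inside the gene, which overlaps Col4a2 (from 11312805). Col4a1 lies at chr8:11312777-11313076 on the minus strand and Col4a2 at chr8:11312555-11312854 on the plus strand. Capitals mark the shared bases.
Col4a1: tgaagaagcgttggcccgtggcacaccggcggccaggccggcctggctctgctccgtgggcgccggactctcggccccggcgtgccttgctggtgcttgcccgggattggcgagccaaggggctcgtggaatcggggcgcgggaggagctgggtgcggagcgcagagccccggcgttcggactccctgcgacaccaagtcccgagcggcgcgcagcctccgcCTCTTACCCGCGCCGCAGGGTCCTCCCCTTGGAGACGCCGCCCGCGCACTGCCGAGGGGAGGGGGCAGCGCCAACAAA
Col4a2: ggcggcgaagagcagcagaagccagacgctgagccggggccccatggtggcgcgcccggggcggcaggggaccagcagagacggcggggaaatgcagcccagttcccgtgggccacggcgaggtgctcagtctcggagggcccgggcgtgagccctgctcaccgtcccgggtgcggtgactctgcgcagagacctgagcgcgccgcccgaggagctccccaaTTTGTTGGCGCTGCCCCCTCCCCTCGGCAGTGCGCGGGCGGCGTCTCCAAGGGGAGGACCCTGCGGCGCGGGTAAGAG

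The means of the pair differed in opposite directions, neither past the threshold. Col4a1 was lower on both lineage arrays, at 7.88 and 8.42 against 7.84 and 7.30, although lineage replicate 1 lay only just below virus-injected replicate 1 (difference -0.59, SE 0.29, limma adjusted p = 0.557). On lineage replicate 2 its probe was below the detection limit. Leaving out virus-injected replicate 2 or lineage replicate 2 gave -0.31 and -0.32. Col4a2 was at 7.95 and 7.99 against 7.78 and 8.71 and overlapped (difference 0.28, SE 0.34, limma adjusted p = 0.812). Both intervals include 0, -1.35 to 0.18 for Col4a1 and -0.61 to 1.16 for Col4a2, and the difference between the genes was not tested. The neuronal transmembrane collagen gene Col25a1 had 3 measured probes with close values. Its probe of highest mean was at 9.71 and 9.79 against 9.72 and 9.23, and the 3 differences were -0.28, -0.22 and -0.09. The first was -0.04 without lineage replicate 2 and -0.52 without lineage replicate 1.

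Of the integrin chains, the shared beta1 chain had a higher lineage mean and the laminin-binding alpha3 chain a lower one. Itgb1, the beta1 chain that pairs with most alpha chains, was at 10.28 and 10.23 on the virus-injected arrays and 10.75 and 10.62 on the lineage arrays. The distance between the groups exceeded the spread within each, and the difference of 0.43 (SE 0.15, limma adjusted p = 0.454) kept its direction in all 12 alternatives, between 0.33 and 0.49. A second Itgb1 probe had a difference of 0.69 with overlapping groups (8.02 and 8.55 against 9.41 and 8.53). Itgb8, which pairs with alpha v and activates latent transforming growth factor beta, was at 8.34 and 9.07 against 9.16 and 9.16. The lineage arrays were on top, but only by a narrow margin over virus-injected replicate 2 (difference 0.46, SE 0.28, limma adjusted p = 0.619). The difference was 0.10 without virus-injected replicate 1 and 0.82 without virus-injected replicate 2. Itga3, an alpha chain that binds laminin together with beta1, was at 9.41 and 9.45 against 9.28 and 8.88 (difference -0.35, SE 0.20, limma adjusted p = 0.592), with -0.15 without lineage replicate 2 and -0.55 without lineage replicate 1. Itgb1bp1, which encodes ICAP-1, a protein that binds the beta1 tail, was at 10.07 and 10.05 against 9.59 and 9.93 (difference -0.30, SE 0.18), with -0.13 without lineage replicate 1 and -0.48 without lineage replicate 2. Itgbl1, a secreted protein that resembles beta chains, differed by -0.03, and Thbs3, the sole measured thrombospondin, by -0.0064 on its probe of highest mean. The other Thbs3 probes were at -0.68 and -0.20.

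The adhesion proteins on the inner side of integrins had mostly higher lineage means. Of 11 measured genes in a list of such proteins, 8 had a higher and 3 a lower mean. Both lineage arrays lay above both virus-injected arrays for 6 and below for 0, where 21.5% and 22.7% of all genes did so, and the median difference was 0.19. At an unadjusted p under 0.05, 2 were higher and 0 lower, against 4.41% and 5.87% of all genes. They were Tln2, which encodes talin 2, a protein that links integrins to actin (0.53, SE 0.16), and Zyx, which encodes zyxin of focal adhesions (0.75, SE 0.26). The lower means belonged to Parva (-0.13), Bcar1 (-0.05) and Tln1 (-0.01), with overlapping groups. The list was chosen with earlier results of these data known, and no member passed the adjusted threshold.

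The ADAM and ADAMTS families held a single gene with a large difference among 12 measured. Adamts1 (chromosome 16, 85793827 to 85803113) encodes a secreted protease that cleaves the proteoglycans aggrecan and versican. Its levels were 6.71 and 7.21 on the virus-injected arrays and 8.63 and 8.53 on the lineage arrays. As with Lama1, it was detected on both lineage arrays and on neither virus-injected array. By the same kind of bound the lineage mean was higher at least 2.23-fold. The fitted difference was 1.62 (SE 0.22, 95% interval 1.05 to 2.19, limma adjusted p = 0.295). It passed with the intensity-dependent variance (adjusted p = 0.0386) and in none of its other alternatives. Without background correction the difference was 0.62, again smaller than the bound. Its interval and p-values are a description too, for the same reason as those of Lama1. A second Adamts1 probe was below the detection limit on all 4 arrays and was not tested, so the difference rests on 1 probe. The RefSeq promoter window of the gene (chr16:85803064-85803363, minus strand, GRCm38.p6) is shown because this is the measured protease gene of largest difference. Capitals mark a match to the TATA box letters TATAAA that starts 32 bases before the gene's start.
Adamts1: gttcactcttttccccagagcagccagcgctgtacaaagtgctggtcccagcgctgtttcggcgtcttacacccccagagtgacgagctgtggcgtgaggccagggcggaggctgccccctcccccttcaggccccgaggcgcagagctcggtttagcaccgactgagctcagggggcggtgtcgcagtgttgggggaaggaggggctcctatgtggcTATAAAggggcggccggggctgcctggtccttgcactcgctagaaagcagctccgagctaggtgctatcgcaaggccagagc

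Searched on both strands, TATAAA occurs in 13.6% of the 32851 promoter windows in the table and in neither collagen window above. The letters GGGCGG, the core of the GC box, occur in 35.7% of windows and in all 3 windows shown. The match describes the letters only. Of the 40 measured genes 29 had a window in the table, and Lama1 was not among them.

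By their probe of highest mean, the remaining ADAM and ADAMTS genes differed little or varied within a group, and the probes of Adam23 disagreed. Adam22 and Adam23 encode catalytically inactive ADAMs of the synapse that bind the secreted protein LGI1. The Adam22 probe of highest mean was at 11.61 and 11.59 against 11.62 and 11.71, and its 3 probes gave differences of 0.07, 0.01 and 0.04. Adam23 was at 12.69 and 12.76 against 12.68 and 12.75, a difference of -0.02 (SE 0.15, 95% interval -0.40 to 0.37). Its other probes disagreed with each other. The first was at 9.06 and 9.61 against 9.82 and 9.59 (difference 0.37), and the second at 8.93 and 9.13 against 8.58 and 8.32 (difference -0.58, SE 0.18, limma adjusted p = 0.426). The 3 Adam23 probes therefore gave no common direction, and which transcripts each of them reads is not known here. Adam11, another inactive ADAM, differed by 0.08 and Adam15 by -0.03. Adam17, the sheddase that releases tumour necrosis factor, was at 9.64 and 9.03 against 9.31 and 9.70. Adam19, Adamts13, Adamts17 and Adamts15 also overlapped between the groups, with differences from -0.28 to 0.27. Adamts8 was at 8.05 and 8.77 against 8.02 and 7.87, below on both lineage arrays but with virus-injected replicate 1 and lineage replicate 1 nearly equal. Its difference of -0.46 was -0.10 without virus-injected replicate 2 and -0.84 without virus-injected replicate 1. Adam4 had a difference of 0.52 (SE 0.29) with 1 of 2 virus-injected arrays below the detection limit, and 0.19 without lineage replicate 2.

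**Figure D4:**
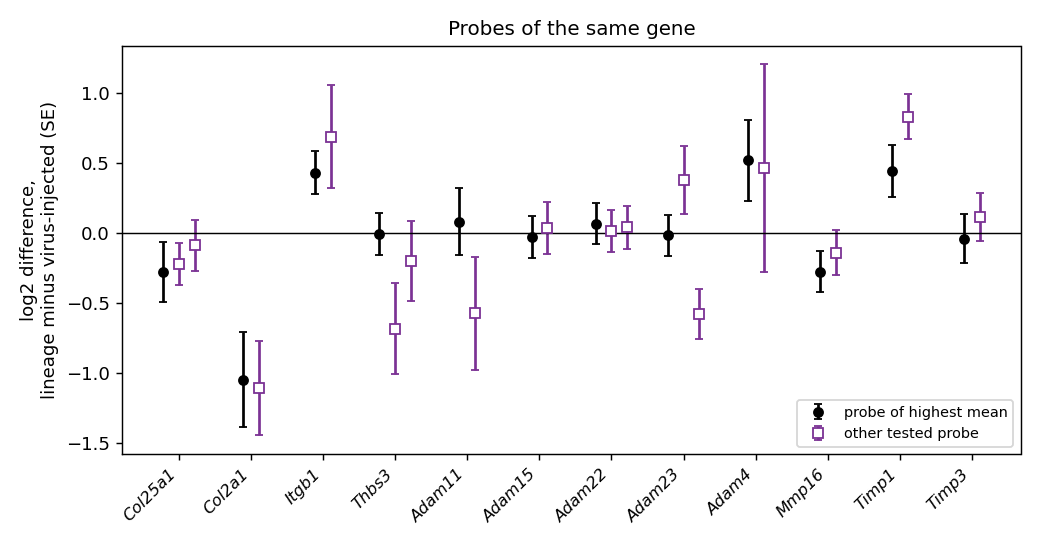
Log2 difference (lineage minus virus-injected, with SE) of every tested probe for the 12 genes that had more than 1. Black circles are the probe of highest mean and open squares the others. Col2a1, Itgb1 and Timp1 probes share a direction, whereas the probes of Adam11, Adam15, Adam23 and Timp3 fall on both sides of 0. The open squares of Col2a1 and Timp1 are probes detected in 1 group alone, so their direction is no support for the other probe.

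Over the families 12 genes had more than 1 tested probe, and in 4 of them, Adam11, Adam15, Adam23 and Timp3, the probes differed in sign. The differences of Adam15 were -0.03 and 0.04 and those of Timp3 -0.04 and 0.11, all within their SE. For Adam11 they were 0.08 and -0.57 (SE 0.24 and 0.40).

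Of the 6 measured MMP genes, 2 had a higher and 4 a lower lineage mean. Mmp16, Mmp17 and Mmp24 encode membrane-type MMPs with lower lineage means, of which Mmp24 is known from neurons. Mmp16 was at 10.34 and 10.24 against 10.03 and 10.01 (difference -0.28, SE 0.15, limma adjusted p = 0.576), with the groups apart by more than the spread within either. Mmp17 was at 10.91 and 10.78 against 10.77 and 10.70 (difference -0.11), and Mmp24 at 10.38 and 10.18 against 10.15 and 10.22 (difference -0.09). Mmp24 overlapped between the groups. Mmp1a, a mouse relative of interstitial collagenase, was at 9.62 and 9.78 against 9.05 and 9.57 (difference -0.39, SE 0.23), with -0.13 without lineage replicate 1 and -0.65 without lineage replicate 2. Mmp23, a further membrane-anchored MMP, was detected on both lineage arrays and on neither virus-injected array, at 7.04 and 7.12 against 7.39 and 7.74. By the bound on group means its lineage level was higher at least 1.10-fold (fitted difference 0.49, SE 0.18, limma adjusted p = 0.478). Array by array this fails, since lineage replicate 1 lay below the dimmest detected signal of virus-injected replicate 1 (7.46). Mmp19, a secreted MMP, was at 8.21 and 8.18 against 8.23 and 8.70, and its difference of 0.27 was 0.03 without lineage replicate 2 and 0.50 without lineage replicate 1.

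Of the inhibitors, Timp2 and Timp3 overlapped between the groups. Timp1 had higher lineage levels on both of its probes, 1 of which was tested through the lineage group alone. Timp2, which besides inhibiting MMPs takes part in activating pro-MMP2, was at 13.04 and 13.08 against 12.85 and 13.06 (difference -0.10, 95% interval -0.52 to 0.32). Timp3, the inhibitor that binds to the matrix and also blocks ADAM17, was at 11.01 and 11.20 against 11.18 and 10.94 (difference -0.04, 95% interval -0.50 to 0.42). Intervals of this width do not show that the levels were equal. Timp1, an inducible inhibitor, was close to background. Its probe of highest mean was at 7.08 and 7.43 against 7.74 and 7.65 and was detected on 1 array of each group (difference 0.44, SE 0.18, limma adjusted p = 0.505). Without virus-injected replicate 1 it was 0.27. The other probe was at 7.08 and 6.94 against 7.75 and 7.93, with detection in the lineage group alone, and its lineage level was higher at least 1.33-fold (fitted difference 0.83, SE 0.16, limma adjusted p = 0.307). Because it was tested through that group alone, its values are a description and no support for the first probe. Timp4 was not detected.

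Other parts of the matrix were described from 5 further lists, in which 0 genes passed the adjusted threshold. Of 8 measured basement membrane genes other than laminins, 3 had a higher and 5 a lower lineage mean, with 1 higher and 2 lower at an unadjusted p under 0.05, which 4.41% and 5.87% of all genes reached in each direction. Smoc1, a calcium-binding matrix protein, was higher by 0.71 (SE 0.17). Hspg2, which encodes perlecan, and Fbln1 (fibulin 1) had detectable signal in the virus-injected group alone. Their mean levels there exceeded the lineage bound at least 1.03-fold and 1.26-fold. Array by array this fails: the dimmest detected signal of lineage replicate 2 was 7.72. Hspg2 was at 7.66 and 7.48 on the virus-injected arrays, and Fbln1 at 7.52 on virus-injected replicate 1. Hspg2 and Fbln1 are the 2 lower genes, and both were tested through the virus-injected group alone. Among 12 brain matrix and perineuronal net genes, 8 means were higher and 4 lower, and the median difference was 0.08. Bgn, the small proteoglycan biglycan, was the single gene past the unadjusted threshold, at 9.01 and 9.75 against 8.05 and 8.58 (difference -1.07, SE 0.33). Bcan, the lectican brevican, was at -0.46, Tnxb at 0.67 and Cspg5 at 0.27. Tnxb and Cspg5 overlapped between the groups (SE 0.54 and 0.22), and Tnxb was detected on 1 array of each group.

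Collagen processing enzymes had 5 higher and 5 lower means among 10 genes, with a median of 0.045. P4ha2, a subunit of collagen prolyl 4-hydroxylase, was at 9.96 and 9.86 against 10.31 and 10.43 (difference 0.46, SE 0.15). P3h1, a prolyl 3-hydroxylase, was at -0.65, Pcolce2 at -0.29 and the lysyl hydroxylase gene Plod1 at 0.23. P3h1 and Plod1 were each detected on 1 of 2 lineage arrays. Among 7 genes of other extracellular proteolysis 4 means were higher and 3 lower. Plaur, the urokinase receptor gene, had detectable signal in the lineage group alone and exceeded the virus-injected bound at least 1.23-fold. Serpini1 (neuroserpin) was at 0.26, Htra1 at -0.34 and Furin at -0.53. For Htra1 and Furin the groups overlapped (SE 0.23 and 0.70), and each was detected on 1 of 2 lineage arrays. Of 5 other matrix glycoprotein genes 4 had a higher mean. Tgfbi was at 7.07 and 7.30 against 8.14 and 7.83 and exceeded the virus-injected bound at least 1.47-fold, both virus-injected arrays being below the detection limit. Ecm1 was at 0.96 (SE 0.26), and Mfge8 was the only one with a lower mean (-0.32).

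**Figure D5:**
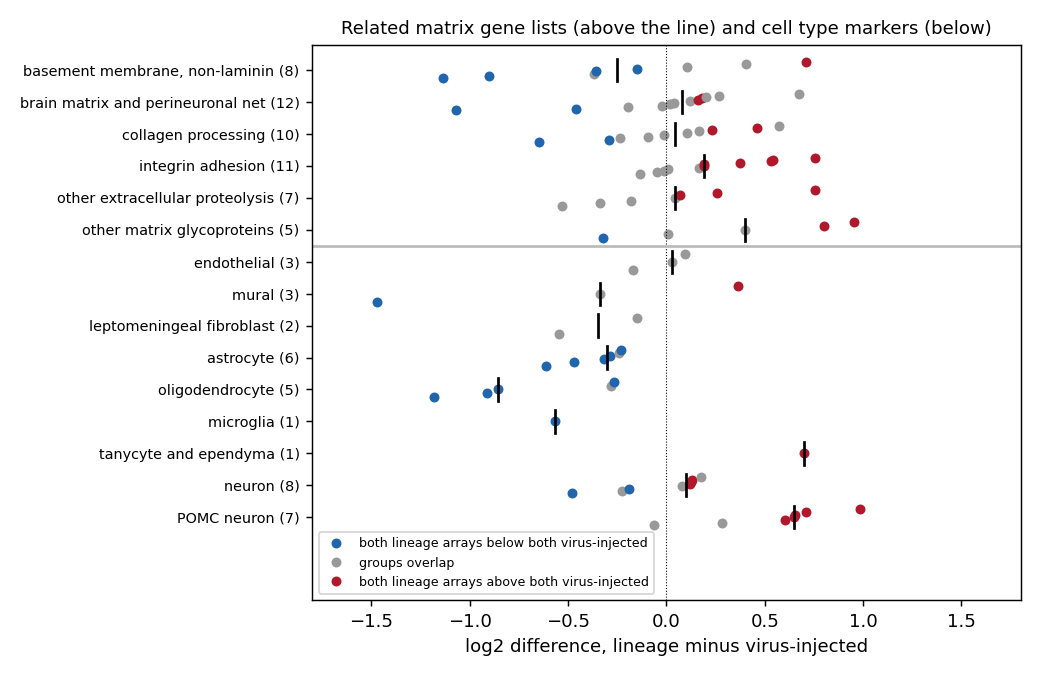
Log2 difference (lineage minus virus-injected) of each measured gene of 6 related matrix lists, above the grey line, and of 9 cell type marker lists, below it, with the number of measured genes in brackets. Colours mark whether the groups overlap, and black bars are the list medians. The astrocyte and oligodendrocyte points all lie left of 0, and those of the integrin adhesion list lie mostly right of 0.

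Matrix genes are shared between neurons, glia and vessel cells, and markers of these cells were read in the same RNA. Marker levels in precipitated RNA do not give the cell composition of the tissue. Fewer cells of a type and less RNA per cell, among other reasons, cannot be told apart in such samples. Neuronal markers were present throughout: all 8 were measured, with a median difference of 0.10, and their summed intensity was 25382 and 25415 on the virus-injected and 25454 and 26809 on the lineage arrays. Of the 8, 5 had a higher and 3 a lower lineage mean. Eno2 was at 0.08 and Stmn2 at 0.12, whereas Syt1 was at -0.48 with both lineage arrays below, Rbfox3 at -0.22 and Nefl at -0.19. All 7 POMC neuron markers were measured as well, with a median of 0.65. Pomc itself was at 12.09 and 12.25 against 12.75 and 12.90, and Cartpt differed by -0.064. Of the vessel cell markers few were measured. Only 3 of 9 endothelial genes on the array (Ly6c1, Itm2a and Esam) were, whereas Pecam1, Cdh5, Tek, Flt1, Kdr and Slco1a4 were not. The endothelial sum was 1145 and 602 against 837 and 790, and the groups overlapped. Of 8 mural cell genes 3 were measured. They went different ways: Acta2 was at 0.36 with both lineage arrays on top, Cspg4 at -0.34 with overlap and Rgs5 at -1.47 with both lineage arrays below. Their sum was 3565 and 3089 against 3191 and 3186, and the groups overlapped. Of 8 leptomeningeal fibroblast genes 2 were measured, Ptgds (-0.55) and Pdgfra (-0.15), summing to 457 and 788 against 480 and 415. The matrix genes Dcn and Lum of such cells were not.

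Astrocyte, oligodendrocyte and microglial markers had lower lineage means. All 6 measured astrocyte genes (of 8) had a lower lineage mean, and their sum was 11278 and 10028 against 8114 and 8227. Gja1 was at -0.61 and Slc1a2 at -0.29. All 5 measured oligodendrocyte genes (of 7) were lower by their means, summing to 4195 and 4573 against 3026 and 2358, with Mbp at -1.18 and Mag at -0.28. Of 7 microglial genes only Aif1 was measured (-0.56), and its intensity was 575 and 472 against 279 and 445. Of 6 tanycyte and ependymal genes only Vim was (0.70), at 210 and 118 against 307 and 212. The lower astrocyte, oligodendrocyte and microglial levels stood beside lower lineage means of Col2a1, Col4a1, Lamb3, Hspg2, Fbln1 and Bgn. Their part in those differences was not tested. The mural marker Rgs5 (-1.47) and the neuronal marker Syt1 (-0.48) were lower too, whereas the matrix genes Lamb1, Col9a1 and Smoc1 had higher means. Beside the higher lineage means of Lama1, Adamts1, Itgb1 and Timp1 stood higher means of 6 of 7 POMC neuron markers and of Vim, whose groups did not overlap. The part of these markers in those values was not tested.

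Across the series, the 4 arrays came from 1 beadchip, with virus-injected samples at positions B and D and lineage samples at F and H, so that position and group cannot be told apart. Between 10982 and 12306 probes were detected per array, the fewest on lineage replicate 2. Log2 intensities of tested probes correlated at 0.968 and 0.964 within the groups and at 0.949 to 0.960 across them, over probes, which are not independent replicates. The tested member probes were each read from 20 to 59 beads. The labels do not state whether replicate arrays stem from different animals, and p-values here then speak only of how far the arrays at hand spread, possibly for technical reasons.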

How the data were processed

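Probe values were taken from the deposited table, whose columns hold for each array, per the file headers, the mean bead intensity, how many beads were read, their standard error and a detection p-value. GenomeStudio made them, per the submitters' processing notes, with no version given. From the deposited intensities neqc (limma 3.58.1, R 4.3.3) made log2 values, by a normexp background fit that uses detection p-values, addition of 16, and quantile normalization. Gene symbols came from the platform annotation, which names 23978 of the 25697 probes. The groups were compared over all 12266 tested probes with lmFit and eBayes (2 residual degrees of freedom), with Benjamini-Hochberg adjustment and 0.05 as the threshold. The smallest two-sided p of an exact permutation test here is 0.333. The fit was also run on simulated data with changes of known size added to some probes. No result of that run is used here. The authors' processed intensities, a straight line of the deposited ones with array medians of 134, 126, 122 and 130, served as an alternative, floored at 16; their linear scale follows from that comparison.

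The members and lists were chosen with earlier results of these data known. Named were, per family, the 2 genes of highest mean and the 3 of smallest p in each direction, any member without overlap that differed by at least 1, and per further list the 2 of smallest p in each direction; per marker list, the 2 of highest mean. Genes outside this rule that are named (Lamc1, Adam11, Adam19, Adamts13, Adamts17, Tln1, Rgs5, Itm2a, Syt1, Rbfox3, Nefl) were chosen after their values were seen. The alternatives were a brightness trend, no background correction, median scaling, cyclic loess, the authors' values, no or a stricter filter (detection p under 0.01 on all 4 arrays), a replicate block, each array left out and the mean over a gene's probes.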

Additional observations from a re-analysis of the deposited data

How the results depend on the processing

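The 35 named members were recomputed under 12 alternatives, or as many as kept their probe, which gave 398 values. Of these 373 kept their direction and side of the threshold, 3 passed it (Lama1 with a trend and without background correction, Adamts1 with a trend), and 22, from 13 genes, changed sign. With 1 array left out in turn, these ranged as follows: Lama2 from -0.96 (without lineage replicate 2) to 0.14 (without lineage replicate 1), Lama4 from -0.29 to 0.56, Col4a2 from -0.19 to 0.73 and Col9a2 from -0.26 to 0.61 (lowest without lineage replicate 2, highest without lineage replicate 1). Adamts15 ranged from -0.61 to 0.042, Timp2 from -0.22 to 0.0042, Timp3 from -0.16 to 0.076, Thbs3 from -0.068 to 0.056 and Adam17 from -0.14 to 0.48. Adam23 ranged from -0.052 to 0.017, Adam15 from -0.090 to 0.030, Itgbl1 from -0.098 to 0.038 and Mmp24 from -0.19 to 0.011. The authors' values turned Itgbl1 to 0.0074 and Adam15 to 0.0093, and median scaling turned Adam15 to 0.0022. The cause was not tested.

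Member probes past the adjusted threshold numbered 0, but 2 with a trend and 1 without background correction. At an unadjusted p under 0.05 the 5 higher and 3 lower probes became 8 and 7 of 223 without a filter and 1 and 1 of 30 under the stricter filter, where other probes were tested. Over all probes the shares were 3.94% and 4% without a filter and 6.7% and 6.04% under the stricter one. With 1 array left out they ranged from 1 (without lineage replicate 2) to 7 and from 0 (without virus-injected replicate 2) to 5, of 49 to 52 member probes, against 3.11% to 5.23% and 2.78% to 6.53% of all probes. The 11 higher and 14 lower probes without overlap became 40 and 42 without a filter (19.8% and 18.7% of all probes) and 4 and 7 under the stricter one (24.5% and 21.3%). They ranged from 12 to 18 and from 18 to 26 with 1 array left out, where fewer arrays have to separate and 35.2% to 37.6% and 33.5% to 36.7% of all probes did. The replicate block left 3 higher probes and changed no adjusted call. The replicate numbers were not taken as pairs, since deviations of same-numbered arrays correlated at -0.024 over probes. The laminin median of 0.09 ranged from -0.29 to 0.35 with 1 array left out and the integrin median of -0.029 from -0.098 to 0.038. That integrin median is the value of Itgbl1, which encodes no integrin chain. The measured chains Itgb1, Itgb8 and Itga3 differed by 0.43, 0.46 and -0.35. The ADAM and ADAMTS median of 0.053 ranged from -0.067 to 0.073 and the TIMP median of -0.041 from -0.12 to 0.076, so that none of these 4 medians has a settled direction. The thrombospondin median, a single gene, was 0.073 without a filter and -0.30 as the mean over its probes, and under the stricter filter it had no measured gene. The collagen and MMP medians stayed below 0 with each array left out, but came near it. They ranged from -0.26 to -0.025 and from -0.18 to -0.017. The 2 arrays a group and signals near background limit the precision.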
